A study of Mus musculus with 2 samples.

Results

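Chl1, Crocc2, Kng2, Nfasc, Akr1c18, H19, Snhg11 and Emb are 8 of the 27998 genes counted in single cells of the mouse abdominal aorta. They were picked because their transcripts lay in fibroblasts of mice given LCWE and were scarce or missing in fibroblasts of mice given PBS, so the values of that contrast describe the choice and are no test of it. Only Chl1 was missing from all PBS fibroblasts, and most Emb transcripts of the LCWE library lay in leukocytes. LCWE is a cell wall extract of Lactobacillus casei. Injected into mice it gives an inflammation of the coronary arteries and abdominal aorta that is used as a model of Kawasaki disease, a vasculitis of children. The LCWE library was made from 7 pooled aortas and the PBS library from 9 pooled aortas of wild-type C57BL/6J mice, taken 2 weeks after the injection; the age and sex of the mice were not given in the sources used here. With 1 pooled library in each group there is no replicate and no test, the pool of animals cannot be split, and all brackets hold 95% intervals that cover counting error only.

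Cells kept the class names that the authors deposited. The fibroblast class held 813 LCWE cells and 868 PBS cells, with a median of 11494 unique molecular identifiers (UMIs, each a captured transcript) per LCWE cell and 6215 per PBS cell. All 8 fibroblast markers (Col1a1, Col1a2, Col3a1, Dcn, Lum, Pdgfra, Dpt and Pi16) were found in both, at 874 UMIs per LCWE cell and 634 per PBS cell. UMIs per cell, here and for the markers below, are not scaled for the greater depth of LCWE cells. Transcripts of leukocytes moved with the group too. Ptprc, the pan-leukocyte gene CD45, was found in 152 LCWE fibroblasts (18.7%) and in 1 PBS fibroblast. Neutrophil markers (5 of 5 found, against 3 of 5) were at 4.46 UMIs per LCWE fibroblast and 0.0207 per PBS fibroblast, and macrophage markers (6 of 6, against 2 of 6) at 1.20 and 0.153. The 2 libraries shared 8 cell barcodes, and none of these was a fibroblast in both.

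The genes fall into 4 kinds. Chl1 (close homolog of L1) and Nfasc (neurofascin) are cell adhesion proteins of the L1 family, which span the membrane, bind ankyrin inside the cell and are best known from axons and their myelinated segments. Emb (embigin) is an immunoglobulin-like membrane protein of the basigin family that escorts monocarboxylate transporters to the cell surface. Kng2 is a mouse kininogen, the precursor from which kallikreins release bradykinin, a peptide that dilates vessels and makes them leaky, and Akr1c18 is the aldo-keto reductase that inactivates progesterone (20α-hydroxysteroid dehydrogenase). Crocc2 is a paralog of rootletin, the protein of the ciliary rootlet. H19 is an imprinted RNA of the Igf2 locus with no known protein, transcribed from the maternal allele, abundant in the fetus and low in most adult tissues, and Snhg11 is a host gene of small nucleolar RNAs.

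In GENCODE vM21 (GRCm38, the build called mm10), Chl1 lies on chromosome 6 from 103510586 to 103750211 on the plus strand, and Nfasc on chromosome 1 from 132564690 to 132741797 on the minus strand. Emb lies on chromosome 13 from 117208536 to 117274415 (plus) and Akr1c18 on the same chromosome from 4132615 to 4150654 (minus). Kng2 spans 22985854 to 23029482 of chromosome 16 (minus), Crocc2 spans 93168725 to 93231072 of chromosome 1 (plus) and Snhg11 spans 158375638 to 158386145 of chromosome 2 (plus), where the annotation calls it protein coding. H19 is a long intergenic RNA at 142575529 to 142578143 of chromosome 7 (minus). Genes on the opposite strand of Nfasc and Emb (Gm10538 and Gm17509) had 0 UMIs in LCWE fibroblasts. Kng2 and Akr1c18 have close paralogs, so their counts depend on how reads that fit more than 1 copy were treated.

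H19 also holds the hairpin of a miRNA, mmu-miR-675, at 142577064 to 142577147 of chromosome 7, within the H19 transcript. The libraries counted polyadenylated 3′ ends, so the miRNA itself was not measured. Its mature forms are shown with the seed, bases 2 to 8, in capitals (RefSeq, GRCm38.p6), because they are cut from the H19 transcript. The 5p and 3p seeds differ.
mmu-miR-675-5p: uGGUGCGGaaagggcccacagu
mmu-miR-675-3p: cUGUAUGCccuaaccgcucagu

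The promoters of 4 genes that were detected together or apart in the same cells (Chl1, Kng2 and Emb together, Akr1c18 apart from Kng2) are shown for comparison, from 250 bases before to 50 bases after the RefSeq start (GRCm38.p6). They are chr6:103510626-103510925 on the plus strand, chr16:23029052-23029351 on the minus strand, chr13:4150597-4150896 on the minus strand and chr13:117220323-117220622 on the plus strand, each written in the direction of the gene. The Emb window lies far inside the GENCODE span of the gene, which starts at 117208536. Those of Chl1 and Kng2 lie just inside theirs, so the ends of these spans were not searched. Capitals mark a GC box.
Chl1 promoter: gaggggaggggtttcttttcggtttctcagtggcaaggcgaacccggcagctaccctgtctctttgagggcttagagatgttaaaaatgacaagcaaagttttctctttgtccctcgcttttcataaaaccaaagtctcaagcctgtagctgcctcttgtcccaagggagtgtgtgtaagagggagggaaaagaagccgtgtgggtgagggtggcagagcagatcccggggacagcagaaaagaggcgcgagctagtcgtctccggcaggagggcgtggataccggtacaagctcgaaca
Kng2 promoter: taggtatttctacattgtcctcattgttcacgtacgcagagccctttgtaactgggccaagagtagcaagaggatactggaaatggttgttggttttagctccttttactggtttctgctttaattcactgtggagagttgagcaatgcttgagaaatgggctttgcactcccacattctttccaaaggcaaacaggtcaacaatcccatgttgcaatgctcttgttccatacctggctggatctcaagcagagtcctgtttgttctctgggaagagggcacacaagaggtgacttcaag
Akr1c18 promoter: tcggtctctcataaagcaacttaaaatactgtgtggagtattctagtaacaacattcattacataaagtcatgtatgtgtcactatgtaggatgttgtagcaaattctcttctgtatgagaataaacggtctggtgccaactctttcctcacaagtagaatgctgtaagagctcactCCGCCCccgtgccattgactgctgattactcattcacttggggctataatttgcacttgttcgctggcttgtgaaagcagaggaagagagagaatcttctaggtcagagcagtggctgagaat
Emb promoter: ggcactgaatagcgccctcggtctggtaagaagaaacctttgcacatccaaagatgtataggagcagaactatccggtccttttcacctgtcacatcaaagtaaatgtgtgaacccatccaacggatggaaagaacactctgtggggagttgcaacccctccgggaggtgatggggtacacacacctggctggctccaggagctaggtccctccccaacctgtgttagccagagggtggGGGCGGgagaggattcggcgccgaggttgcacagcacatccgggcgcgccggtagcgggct

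Of 6 motifs searched on both strands, only the GC box was found in these 4 windows, once in Akr1c18, 73 bases before the start and on the opposite strand, and once in Emb, 11 bases before the start. The motifs, with the share of all 32851 promoter windows that hold them, were TATAAA (13.6%), CCAAT (37.4%), the AP-1 motif TGANTCA (7.81%), the NF-κB motif (0.411%), the GC box GGGCGG (35.7%) and the TEAD motif GGAATG (14.7%). The windows of Crocc2 and Snhg11 held none of the 6. Nfasc has 2 windows, 1 with a GC box and a TEAD motif and 1 with 2 CCAAT boxes, and H19 is named only. Both Nfasc windows lie far inside its GENCODE span, which ends at 132741797 and is read from the minus strand. CpG pairs numbered 13 in the Chl1 window, 14 in Emb, 5 in Akr1c18 and 2 in Kng2, against a median of 7 over all windows. None of the 6 motifs was common to the windows of Chl1, Kng2 and Emb. Emb and 1 Nfasc window both held a GC box, as did 35.7% of all windows, and H19 had no window to compare with Akr1c18.

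How far apart were the fibroblasts of the 2 libraries? Chl1 had 2688 UMIs in LCWE fibroblasts and 0 in PBS fibroblasts, or 269 (259 to 280) and 0 CPM (UMIs of the gene scaled to a class total of 1e+06 UMIs). With the PBS sum set to a floor of 3 UMIs the ratio was 546, and the exact lower limit for 0 UMIs was 444-fold. Kng2 had 674 and 2 UMIs (67.5 and 0.329 CPM, LCWE then PBS), a ratio of 205 (56.6 to 1699). Crocc2 had 432 UMIs in LCWE and 2 in PBS fibroblasts, a ratio of 132 (36.2 to 1090.4), and Nfasc 375 in LCWE and 2 in PBS, a ratio of 114 (31.4 to 947). The intervals are wide because they rest on 2 PBS UMIs.

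Emb had 1304 UMIs in LCWE fibroblasts and 9 in PBS fibroblasts (131 and 1.48 CPM), a ratio of 88.3 (46.4 to 194). H19 had 3467 and 51 UMIs (347 and 8.38 CPM), a ratio of 41.4 (31.4 to 55.8), and so was not missing from the PBS pool. Snhg11 had 128 UMIs in LCWE and 3 in PBS fibroblasts, a ratio of 26.0 (8.70 to 128). Akr1c18 had 491 and 16 UMIs (49.2 and 2.63 CPM), a ratio of 18.7 (11.4 to 33.0), the smallest of the 8.

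All 8 genes passed a 10-fold excess in LCWE fibroblasts, as did 2.03% of the 10893 genes with at least 50 UMIs over both classes; since the 8 were chosen on this contrast, nothing is read from the count. The median log2 ratio of those genes was 0.04. By ratio Chl1 stood at place 2 of the 10893, Kng2 at 9, Emb at 17, Crocc2 at 18, Nfasc at 22, H19 at 42, Snhg11 at 75 and Akr1c18 at 115. With the 152 LCWE and 1 PBS fibroblasts that held a Ptprc UMI left out, 98 genes were at least 10-fold higher in place of 221, and all 8 genes remained among them.

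**Figure D1:**
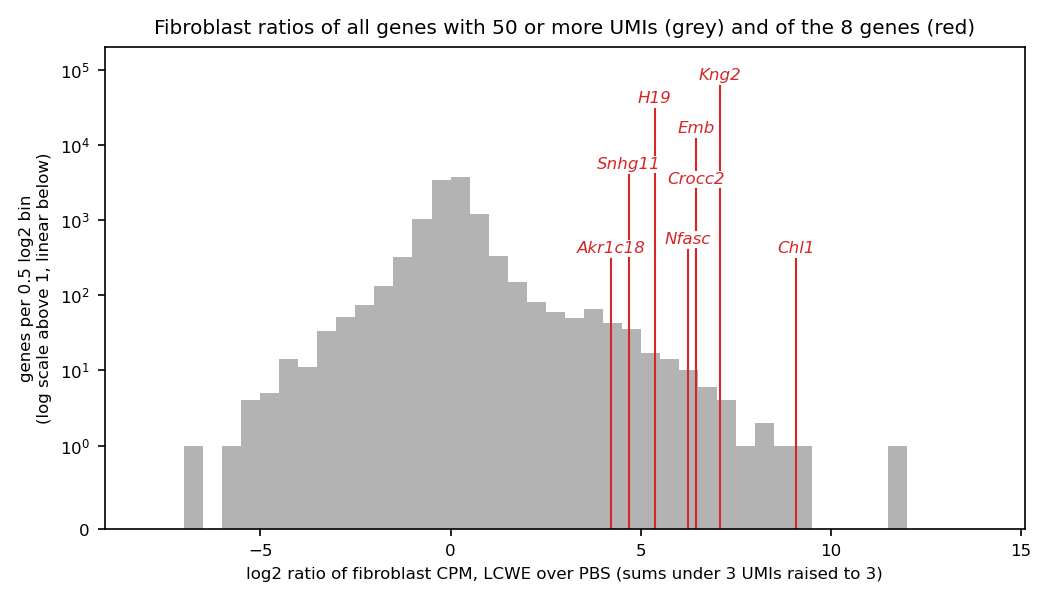
Number of genes (vertical axis, log scale above 1) by log2 ratio of fibroblast CPM, LCWE over PBS, in bins of 0.5 for the 10893 genes with 50 or more UMIs (grey); red lines mark the 8 genes, with sums under 3 UMIs raised to 3. The 8 lie between a log2 ratio of 4.23 (Akr1c18) and 9.09 (Chl1), to the right of the bulk of genes, whose median is 0.04.

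The 8 genes differed in how many cells held them and in how much a positive cell held. Chl1 was found in 481 of 813 LCWE fibroblasts, 59.2% (55.7 to 62.6), and in 0 of 868 PBS fibroblasts, which allows a share of cells with a UMI of up to 0.346% by the rule of 3 counts and 0.424% by the exact limit. Emb was found in 419 LCWE fibroblasts, 51.5% (48.0 to 55.02), and in 8 PBS fibroblasts, 0.922% (0.399 to 1.81). Kng2 followed with 280 LCWE cells (34.4%) and 2 PBS cells, and Nfasc with 238 LCWE cells (29.3%) and 2 PBS cells. H19 was in 195 LCWE cells (24.0%) and 16 PBS cells (1.84%). Crocc2 was in 122 LCWE cells (15.01%) and 2 PBS cells, Snhg11 in 84 LCWE cells (10.3%) and 3 PBS cells, and Akr1c18 in 66 LCWE cells (8.12%) and 6 PBS cells (0.691%).

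H19 and Akr1c18 were carried by few cells at many UMIs each. The positive LCWE fibroblasts held a median of 7 H19 UMIs, up to 158, and a median of 6 Akr1c18 UMIs, up to 39. The 81 richest LCWE fibroblasts for each gene, the top 10%, held 87.4% of the H19 UMIs and 100% of those of Akr1c18. Chl1 and Emb were spread more widely, with medians of 3 and 2 UMIs per positive LCWE cell and 49.9% and 46.7% of UMIs in the 81 richest cells. Nfasc and Snhg11 were at the limit of detection, with a median of 1 UMI per positive LCWE cell, and 62.6% and 67.9% of their positive cells held a single UMI. Their shares of positive cells therefore depend on depth more than those of H19.

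In the PBS pool 36 of 868 fibroblasts held any of the 8 genes, and 2 held more than 1. Both held H19 and Akr1c18, with 5 H19 and 12 of the 16 Akr1c18 UMIs of the class between them, and 1 of the 2 also held an Emb UMI. The most H19 UMIs in a PBS fibroblast were 11, and the most Akr1c18 UMIs were 7. H19 and Akr1c18 were thus the only pair seen together in more than 1 PBS fibroblast.

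**Figure D2:**
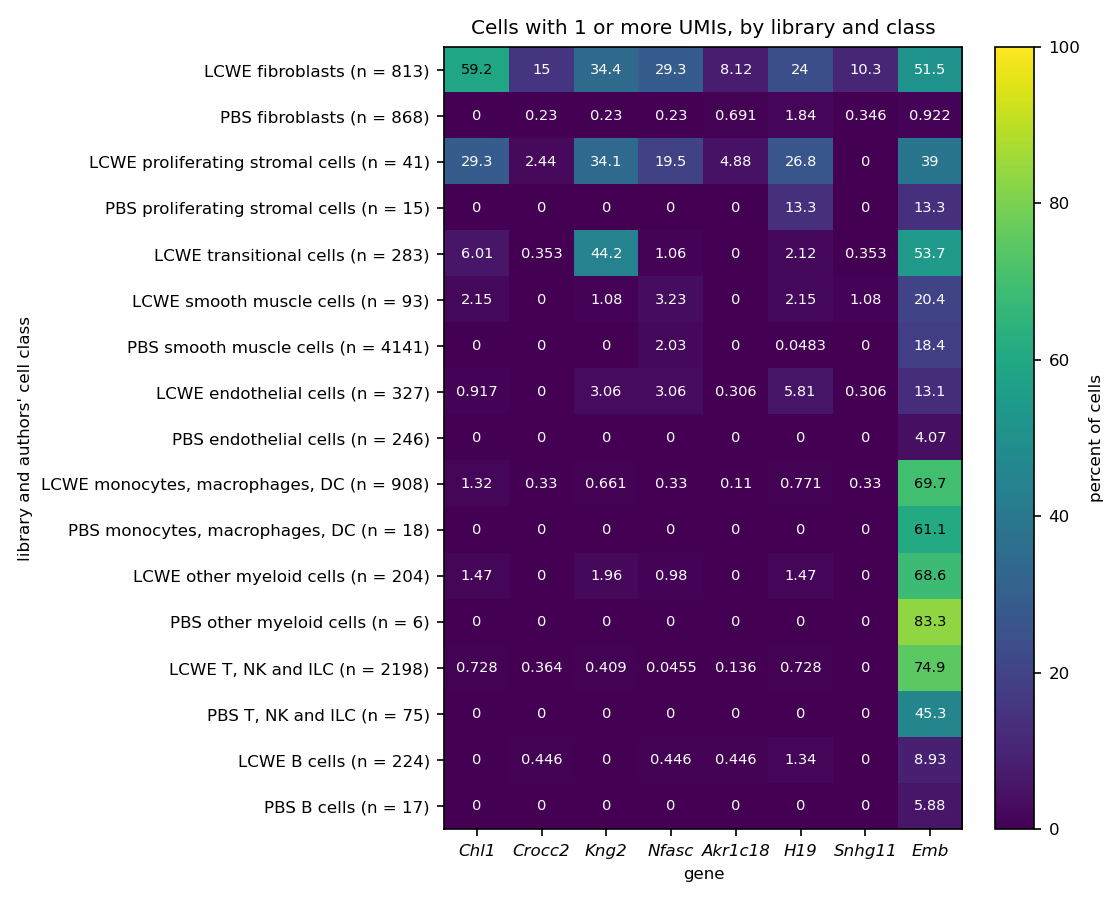
Percent of cells with at least 1 UMI of each gene (columns, left to right as listed above) in each library and broad class named by the authors (rows, LCWE above PBS, with the number of cells); the transitional class has no PBS cells. At the deposited depth, fibroblasts of the LCWE library lead for Chl1, Crocc2, Nfasc, Akr1c18 and Snhg11. Kng2 is most frequent in the deeper transitional class at 44.2%, and Emb is found in 74.9% of LCWE T, NK and innate lymphoid cells.

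Depth differed between the pools, so cells were also thinned to 5000 UMIs each, which left out 149 LCWE and 341 PBS fibroblasts with fewer. At that depth Chl1 was in 48.3% (44.5 to 52.2) of 664 LCWE fibroblasts and in 0 of 527 PBS fibroblasts. H19 was in 21.7% and 1.90% (LCWE, then PBS), and Emb in 36.7% and 0.759%. These values come from the contrast on which the genes were picked and from the deeper cells alone. Free RNA gives a few UMIs to cells that do not make a transcript. In 2422 LCWE lymphocytes, with a median of 3878.5 UMIs, Chl1 was in 0.661% of cells, H19 in 0.784%, Crocc2 and Kng2 in 0.372% each, Akr1c18 in 0.165%, Nfasc in 0.0826% and Snhg11 in 0. Thinned to 3000 UMIs, Chl1 was in 37.9% of LCWE fibroblasts and 0.454% of LCWE T, NK and innate lymphoid cells, and Snhg11 in 2.53% and 0 of 1764.

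In which other cells were they found? Shares of a library's UMIs depend on how many cells of each class it holds. Fibroblasts held 96.9% of the Crocc2 UMIs of the LCWE library, 95.5% of Snhg11, 92.3% of Akr1c18, 90.7% of Chl1, 90.1% of Nfasc and 89.7% of H19. They held 63.9% of the 1054 Kng2 UMIs and 13.4% of the 9742 Emb UMIs. So most UMIs of 7 of the 8 genes lay in fibroblasts, with a large remainder elsewhere for Kng2, while most Emb UMIs lay in other classes.

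Kng2 was shared with a class that the authors name transitional between smooth muscle and fibroblast, which has 283 LCWE cells and no PBS cells. There 303 UMIs in 125 cells made 44.2% (38.3 to 50.2) of cells positive, at 1.07 UMIs per cell and 52.4 CPM, against 34.4% of LCWE fibroblasts at 0.829 UMIs per cell and 67.5 CPM. The order of the classes thus turns between UMIs per cell and CPM, and the transitional cells were deeper, with a median of 19942 UMIs. At 5000 UMIs per cell, Kng2 was in 21.4% of 280 transitional cells and 21.2% of 664 LCWE fibroblasts. At 3000 UMIs these shares were 12.4% and 14.0%. At the deposited depth Chl1 was in 17 transitional cells (6.01%), H19 in 6, Nfasc in 3, Crocc2 and Snhg11 in 1 each and Akr1c18 in none. Kng2 was also in 9 of 88 LCWE lymphatic endothelial cells (10.2%), with 16 UMIs, and in 0 of 29 PBS ones.

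Proliferating stromal cells, 41 in the LCWE and 15 in the PBS library, held several of the genes together. Chl1 was in 12 of the 41 LCWE cells (29.3%, 16.1 to 45.5) with 122 UMIs and in none of the 15 PBS cells. H19 was in 11 LCWE cells with 182 UMIs and in 13.3% of the PBS cells with 4 UMIs, and Kng2 was in 14 LCWE cells with 36 UMIs and no PBS cell. Akr1c18 had 34 UMIs in 2 of the LCWE cells, and Snhg11 had none. The class is small and its cells are deep, with median UMIs of 26038 in the LCWE and 21191 in the PBS library.

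H19 was found in endothelium as well. Lymphatic endothelial cells held it in 14 of 88 LCWE cells, 15.9% (8.98 to 25.2), with 95 UMIs and up to 34 in a cell, and in 0 of 29 PBS cells, which does not bound the share below 11.9%. Of 239 LCWE blood endothelial cells, 5 held 33 H19 UMIs, 29 of them in 1 cell, against 0 of 217 PBS cells. In smooth muscle it had 5 UMIs in 93 LCWE cells and 3 UMIs in 4141 PBS cells. A neutrophil of the LCWE library held 10 Chl1 UMIs, all of that class.

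Nfasc had a second site in smooth muscle cells, the main cells of the arterial wall. It had 4 UMIs in 93 LCWE smooth muscle cells and 92 UMIs, of 94 in the whole PBS library, in 4141 PBS smooth muscle cells, of which 84 (2.03%) were positive. The CPM were 4.58 in LCWE and 1.72 in PBS cells, a ratio of 2.66 (0.710 to 7.05) whose interval includes 1. Nfasc was also in 10 of 239 LCWE blood endothelial cells (4.18%) and in none of 217 PBS ones. Of all 8 genes, Emb alone had over 20 UMIs in both libraries in a class other than fibroblasts.

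Emb is a gene of leukocytes in this tissue as much as of fibroblasts, so the data go against calling it a marker of LCWE fibroblasts. Per LCWE cell it was highest in γδ T cells, at 5.06 UMIs (1134 CPM), followed by proliferating T cells at 3.60, a class of 22 unresolved monocytes, macrophages and dendritic cells at 3.27, Mono1 monocytes at 3.11, and regulatory and activated CD4 T cells at 2.80. Transitional cells had 2.07 and fibroblasts 1.60 UMIs per cell (101 and 131 CPM). It was least frequent in lymphatic endothelial cells, at 4.55% of 88 cells with a median of 7420.5 UMIs, and in B cells, at 8.93% of 224 with a median of 2818, which serve here as the background beside 51.5% of fibroblasts. T, NK and innate lymphoid cells had 495 and 288 CPM (LCWE, then PBS; 2198 and 75 cells), a ratio of 1.72 (1.43 to 2.08).

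Smooth muscle and blood endothelium also had higher Emb CPM in the LCWE library. Smooth muscle cells had 43 Emb UMIs in 93 LCWE cells and 1475 in 4141 PBS cells, or 49.2 and 27.6 CPM, a ratio of 1.78 (1.29 to 2.41), and 18.4% of the PBS cells were positive. Blood endothelial cells had 111 and 17 UMIs (37.3 and 10.2 CPM), a ratio of 3.66 (2.18 to 6.50), and of the genes tested in these classes 13.3% in smooth muscle and 8.91% in blood endothelium were at least 2-fold higher in LCWE cells. In T, NK and innate lymphoid cells that share was 3.88%. Whether the Emb ratio differs between classes was not tested, as each has 1 library per group.

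Leukocyte transcripts moved with Emb within the LCWE fibroblasts: Ptprc was in 25.1% of the 419 Emb-positive cells and 11.9% of the 394 Emb-negative cells, and neutrophil markers were at 464 CPM in the Emb-positive and 188 CPM in the Emb-negative cells. Emb-positive cells were also deeper, with a median of 14647 UMIs against 7501.5. LCWE fibroblasts held 3.03 (2.71 to 3.38) Emb UMIs per Ptprc UMI. Transitional cells held 2.09 and γδ T cells 2.63 (2.09 to 3.32), while the other leukocyte classes held from 0.0385 in Mono2 to 0.681 in regulatory and activated CD4 T cells. LCWE blood endothelial cells held 0.547 (0.430 to 0.693) and LCWE smooth muscle cells 0.683 (0.452 to 1.02). The part of carried-over leukocyte transcripts in the Emb of these 2 classes was not tested. Without the cells that held a Ptprc UMI, Emb was in 47.5% of the remaining 661 LCWE fibroblasts.

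How often did the genes meet in a cell? Of 813 LCWE fibroblasts, 174 held none of the 8, 128 held 1, 120 held 2, 170 held 3, 132 held 4, 61 held 5, 23 held 6, 4 held 7 and 1 held all 8. At least 3 were found in 391 cells, 48.1% (44.6 to 51.6), against 1 of 868 PBS fibroblasts, 0.115% (0.00292 to 0.640). Depth moved with the number: the median was 5623 UMIs in LCWE cells with none of the genes, 14244.5 in those with 3 and 18349 in those with 5. At 5000 UMIs per cell, at least 3 were found in 26.4% (23.0 to 29.9) of 664 LCWE fibroblasts and 0 of 527 PBS fibroblasts. Over 20 draws of the thinning the LCWE share ran from 25.3% to 28.8%.

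Among other LCWE classes, at least 3 of the genes were found in 11 of 41 proliferating stromal cells (26.8%), 10 of 283 transitional cells (3.53%), 1 of 93 smooth muscle cells, 0 of 239 blood endothelial cells and 0 of 2198 T, NK and innate lymphoid cells. At 5000 UMIs per cell the proliferating class gave 1 of 37 and the transitional class 2 of 280. Without Emb, 32.7% of LCWE and 0 of 868 PBS fibroblasts held at least 3 of the other 7 genes.

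**Figure D3:**
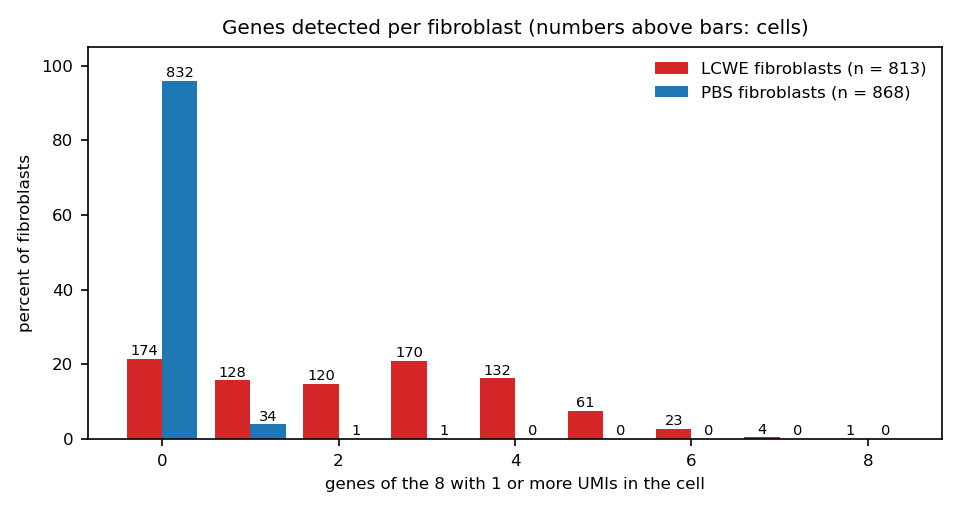
Percent of fibroblasts (vertical axis) by the number of the 8 genes with at least 1 UMI in the cell (horizontal axis), at the deposited depth, for LCWE (red, left bars) and PBS fibroblasts (blue, right bars); numbers above bars are cells. At this depth LCWE cells peak at 0 and again at 3 genes (174 and 170 cells, with median UMIs of 5623 and 14244.5), while 832 of 868 PBS cells held none. With LCWE cells thinned to 5000 UMIs, 516, 337, 175 and 59 of 664 held at least 1, 2, 3 and 4 genes, without a peak at 3.

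Within the LCWE fibroblasts, thinned to 5000 UMIs, 6 of the other 7 genes were more frequent in Chl1-positive than in Chl1-negative cells on average. Phi was highest for Emb, Kng2, Nfasc and Crocc2, and Akr1c18 was less frequent. How many of all genes had a positive phi with Chl1 was not counted, so nothing is read from the 6 of 7. In 1 draw Emb ranked 5, Kng2 19, Nfasc 75, Crocc2 89, H19 296, Snhg11 740 and Akr1c18 7614 of 7801 genes by phi. Over 20 draws phi was as low as 0.0066 for H19 and 0.0023 for Snhg11. The genes were picked as high in LCWE fibroblasts, and the part of that choice in co-detection was not tested. The shares below are means over 20 draws with the lowest and highest draw, and describe cells of 1 library, with no test. Emb was in 49.2% (46.0 to 52.6) of Chl1-positive cells and 24.7% (22.0 to 27.4) of Chl1-negative cells, and Kng2 in 30.0% (25.5 to 32.9) and 13.9% (11.3 to 16.1). Nfasc was in 22.0% of Chl1-positive and 9.29% of Chl1-negative cells, and Crocc2 in 15.7% and 6.50%. H19 was in 24.7% (23.5 to 26.7) of Chl1-positive and 20.8% (18.5 to 23.2) of Chl1-negative cells, and Snhg11 in 6.38% and 3.87%. For Akr1c18 the order was the reverse, with 4.70% (3.95 to 5.88) of Chl1-positive and 8.66% (7.23 to 10.7) of Chl1-negative cells. At the deposited depth, where Chl1-positive cells were deeper (median 14431 UMIs, against 7502.5 in Chl1-negative cells), Akr1c18 was instead 3.54 percentage points more frequent in Chl1-positive cells. Neutrophil markers in the 481 Chl1-positive and 332 Chl1-negative cells were at 364 and 361 CPM, or 5.29 and 3.26 UMIs per cell. Macrophage markers were found in 29.1% of Chl1-positive and 20.5% of Chl1-negative cells, and Ptprc in 20.6% and 16.0%.

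H19 and Akr1c18 were also detected together. H19 was in 58.6% (51.1 to 66.7) of Akr1c18-positive cells and 20.2% (18.9 to 21.3) of Akr1c18-negative cells. Kng2 was in 2.91% (0 to 6.82) of Akr1c18-positive and 23.3% (20.2 to 24.9) of Akr1c18-negative cells. Leukocyte transcripts moved with both genes at the deposited depth. Neutrophil markers were at 41.6 CPM in Akr1c18-positive and 412 CPM in Akr1c18-negative cells, and at 198 CPM in H19-positive and 440 CPM in H19-negative cells. Macrophage markers were at 44.6 and 106 CPM for Akr1c18 and 54.4 and 118 CPM for H19, and their part in the co-detection was not tested. The phi coefficient, which is 1 for detection in the same cells and 0 for no relation, averaged 0.25 for Chl1 with Emb, 0.23 for Akr1c18 with H19 and −0.12 (−0.14 to −0.10) for Akr1c18 with Kng2. At the deposited depth, 335 LCWE fibroblasts held Chl1 and Emb, 228 Chl1 and Kng2, 46 Akr1c18 and H19, and 8 Akr1c18 and Kng2.

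**Figure D4:**
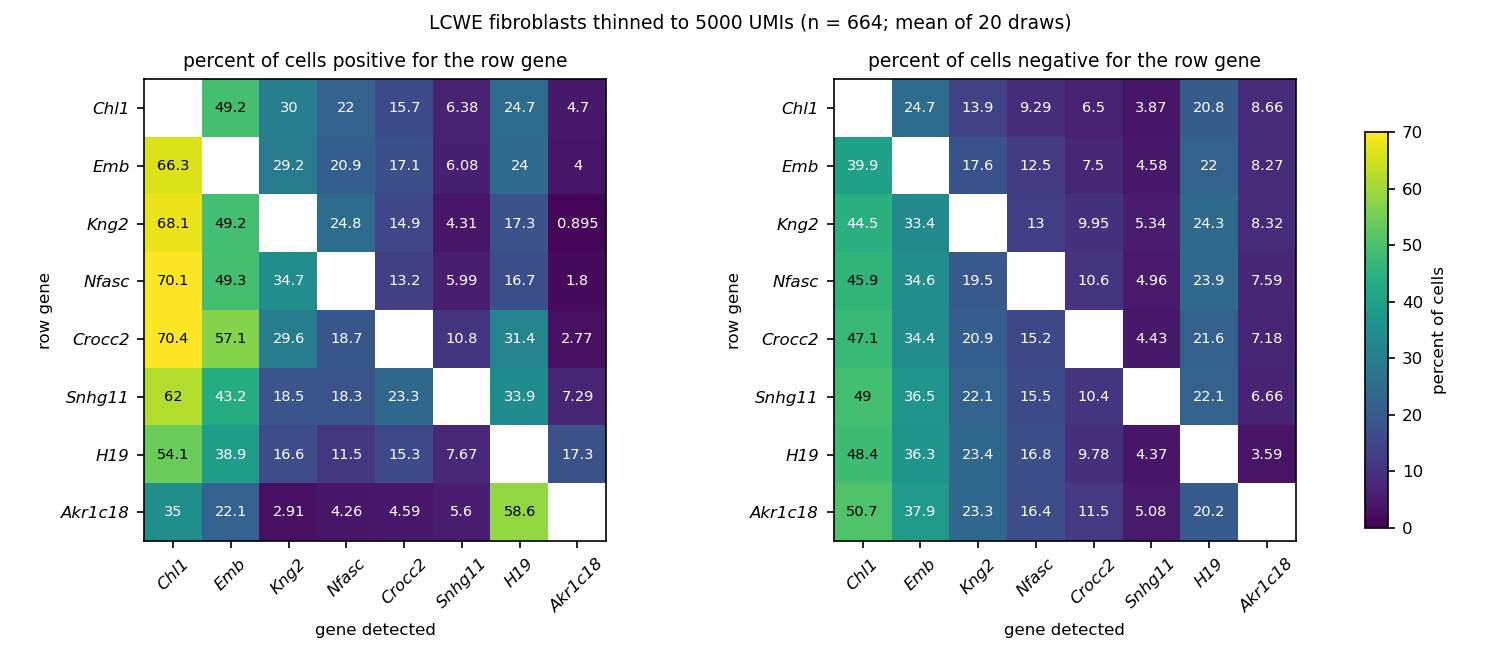
Percent of LCWE fibroblasts in which the column gene was detected, among cells positive (left) and negative (right) for the row gene, at 5000 UMIs per cell (n = 664, mean of 20 draws). In the row of Chl1, Emb stands at 49.2% in positive and 24.7% in negative cells; in the row of Akr1c18, H19 stands at 58.6% and 20.2% and Kng2 at 2.91% and 23.3%.

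Detection of some partners varied with the amount of Chl1. In 1 draw at 5000 UMIs, Kng2 was in 12.8% of 343 LCWE fibroblasts with no Chl1 UMI, 24.8% of 121 with 1, 25.8% of 128 with 2 to 3 and 47.2% (35.3 to 59.3) of 72 with 4 or more. Emb was in 23.9%, 45.5%, 54.7% and 51.4% of the same steps. Akr1c18 was in 9.04% of cells with no Chl1 UMI, 9.09% with 1, 0.781% with 2 to 3 and 1.39% with 4 or more. H19 was highest in the middle, at 33.6% (25.5 to 42.5) of cells with 2 to 3 Chl1 UMIs, against 12.5% (5.88 to 22.4) of those with 4 or more. Going by H19 instead, Akr1c18 was in 3.65% of 520 cells with no H19 UMI, 9.21% of 76 with 1 to 4 and 26.5% (16.5 to 38.6) of 68 with 5 or more.

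The same split showed on the authors' own two-dimensional embedding of all cells (UMAP), which was built from the expression of the cells and so is not independent of these genes. On its first axis LCWE fibroblasts had a median of 0.0885 and PBS fibroblasts −3.20. LCWE fibroblasts with none of the 8 genes had a median of −1.53, between these 2 medians, and those with 3 or more 0.477. The 2 groups of LCWE cells also differed in depth, with medians of 5623 UMIs with none of the genes and 15411 with 3 or more. The part of depth in their positions was not tested. Akr1c18-positive LCWE cells lay at one tip of the group, with a median of 8.17 on the second axis and quartiles of 7.96 and 8.22, where Kng2-positive cells had 6.83 and H19-positive cells 7.60. The 16 H19-positive PBS fibroblasts had a median of 8.23 on that axis, against 6.81 for all PBS fibroblasts.

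**Figure D5:**
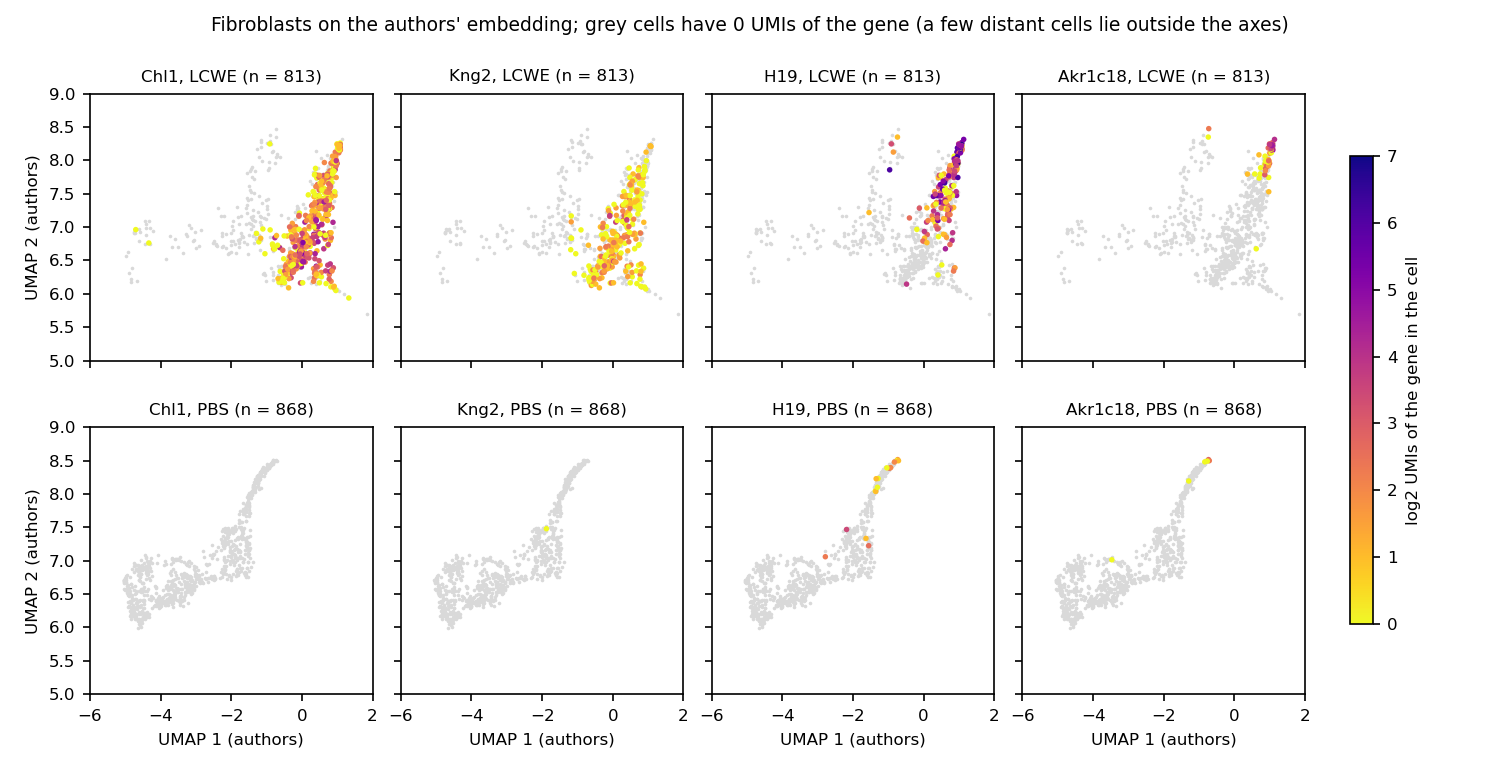
Fibroblasts on the authors' UMAP axes, LCWE above and PBS below, coloured by log2 UMIs of Chl1, Kng2, H19 and Akr1c18 per cell; grey cells have none, and 14 LCWE and 6 PBS fibroblasts lie outside the axes. Chl1 and Kng2 are spread along the right-hand arm of LCWE cells, mostly below its upper tip (upper quartiles of 7.51 and 7.33 on the second axis). H19 and above all Akr1c18 gather toward that tip (7.98 and 8.22).

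Which genes resembled them? Ranked by phi with Chl1 over 7801 genes in 1 draw of the thinned LCWE fibroblasts, the top 5 were Hp (0.30), Serpina3n (0.30), Saa3 (0.29), Srgn (0.28) and Emb (0.28). All phi values in this paragraph are from that draw unless stated. Over the 20 draws phi of Chl1 with Emb averaged 0.25 (0.22 to 0.30), so close ranks can differ between draws. Hp (haptoglobin), Serpina3n and Saa3 are acute-phase genes. Hp was in 75.1% of Chl1-positive and 45.2% of Chl1-negative cells and Saa3 in 50.8% and 22.4%. The same ranking for the other genes was added after the values were seen. Kng2 ranked with Saa3 (0.29) and the matrix protease Mmp3 (0.23). Akr1c18 ranked with Dmkn (0.41), Bmp3 (0.36) and Nov (0.36) and lay farthest from the chemokine Cxcl12 (−0.36), which was in 27.3% of Akr1c18-positive and 84.2% of Akr1c18-negative cells. H19 ranked with Cdkn1c (0.35), an imprinted inhibitor of the cell cycle, and the semaphorin Sema3c (0.35).

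Over 24 sums of a library and fine class with at least 50 cells, likeness was the Pearson correlation of log2(CPM + 10), given as a description because the sums share 2 libraries and mostly contrast LCWE fibroblasts with all else. The 8 genes themselves were left out of this ranking. Among them, Crocc2 and Akr1c18 correlated at 0.98 and Chl1 and Nfasc at 0.93. These values were above the nearest other gene of each of Crocc2, Akr1c18, Chl1 and Nfasc. Snhg11 correlated with Akr1c18 and Crocc2 at 0.97 each and with Nfasc at 0.94, above the value of Chl1 with Nfasc. The 8 genes were picked as high in LCWE and scarce in PBS fibroblasts. These correlations follow in part from that choice and are no test of likeness. Within the thinned LCWE fibroblasts, Crocc2 was in 4.59% of Akr1c18-positive and 11.5% of Akr1c18-negative cells (means over 20 draws). Phi averaged −0.06 (−0.08 to −0.02) for that pair and 0.18 (0.14 to 0.24) for Chl1 with Nfasc. The nearest other genes to Crocc2 were Fbn2 (fibrillin 2, 0.97), Cfd (complement factor D, 0.96) and Wt1 (0.93). The same 3 were the nearest other genes to Nfasc, Akr1c18 and Snhg11, and Fbn2 and Cfd were the nearest others to Chl1 at 0.92 and 0.89. For Kng2 they were Kif21a (0.85), Kcnj15 (0.84) and Ror2 (0.82), and for H19 Ank3 (0.93), Pyroxd2 (0.92) and Glis3 (0.92). Emb had leukocyte genes as neighbours, Rassf5 at 0.90, Mbp at 0.89 and Bin2 at 0.89, and its correlation with Chl1 was −0.00.

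Did relatives and partners of the 8 genes move with them in fibroblasts? Of all 10893 genes with at least 50 UMIs, 8.04% had a ratio of LCWE over PBS of 2 or more and 5.99% one of 0.5 or less. Listed genes were counted from 20 UMIs, so the counts below are not strictly alike to these shares. Nrcam, Cntnap1, Akr1c19 and Slc16a7 passed a line with fewer than 50 UMIs. In the list of L1 family proteins and their partners, 2 of 9 measured genes, leaving aside Chl1 and Nfasc, passed the upper line and 3 the lower, and their median log2 ratio was −0.13. Ank3, the ankyrin G that anchors L1 proteins at the axon initial segment, was at 37.7 and 8.71 CPM (LCWE, then PBS), 4.32-fold (3.24 to 5.88) higher, and the semaphorin receptor Plxna4 2.69-fold (1.94 to 3.81) higher. Nrp1, a semaphorin coreceptor that binds L1 proteins, had a ratio of 0.915 and Ank2 of 1.08. The paralog Nrcam had 13 UMIs in LCWE and 16 in PBS fibroblasts, a ratio of 0.495 (0.219 to 1.098). Cntn6, a contactin that binds Chl1, had 14 and 48 UMIs, a ratio of 0.178 (0.0905 to 0.328).

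In the list of the kinin system, 1 of 6 measured genes passed the upper line and 1 the lower, and the median log2 ratio was 0.36. Kng1, the other kininogen, had 54 UMIs in LCWE and 0 in PBS fibroblasts, a log2 ratio of 3.46 with the PBS sum set to the floor and an exact lower limit of 8.62-fold. The counts of Kng1 and Kng2 depend on how reads that fit both copies were treated, which was not tested. Bdkrb1, the inducible bradykinin receptor, had 27 and 13 UMIs (LCWE, then PBS), a ratio of 1.27 (0.631 to 2.67). Serping1, the C1 inhibitor that also blocks kallikrein, was at 3547 and 2005 CPM, 1.77-fold (1.73 to 1.81), the kinin-degrading protease Ace had a ratio of 0.7002, and carboxypeptidase E, Cpe, was at 57.5 and 440 CPM, a ratio of 0.131 (0.119 to 0.143).

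Of the Akr1c family and steroid enzymes, 2 of 9 passed the upper line and 2 the lower, and the median log2 ratio was 0.40. Akr1c14 had 80 UMIs in LCWE and 8 in PBS fibroblasts, 6.09-fold (2.95 to 14.6), and Akr1c19 had 24 and 1, a ratio of 14.6 (2.38 to 601). Akr1c13 had 36 and 15 UMIs, a ratio of 1.46 (0.781 to 2.88). The steroid reductase Srd5a1 had a ratio of 0.227 and Hsd11b1, which regenerates active glucocorticoid, of 0.455 (0.393 to 0.527). Of the imprinted genes, 1 of 16 passed the upper line and 2 the lower, and the median log2 ratio was 0.29. Cdkn1c was at 340 and 119 CPM (LCWE, then PBS), 2.85-fold (2.63 to 3.09), while Meg3, another imprinted long RNA, was at 2058 and 1636 CPM, a ratio of 1.26. Igf2, the neighbour of H19, had 11 UMIs in LCWE and 8 in PBS fibroblasts, too few to be counted as measured.

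Of the embigin and monocarboxylate transporter list, 3 of 8 passed the upper line and 1 the lower, and the median log2 ratio was 0.07. Slc16a1 (MCT1) was at 81.0 and 23.5 CPM (LCWE, then PBS), 3.45-fold (2.88 to 4.15), and Slc16a3 (MCT4) 2.82-fold (1.80 to 4.58). Bsg (basigin), the paralog of Emb, had a ratio of 0.775 (0.745 to 0.806) and Nptn of 0.963. Slc16a7 (MCT2), the transporter that embigin is best known to escort, had 10 and 20 UMIs, a ratio of 0.305. In the rootlet list 0 of 5 passed either line, and Crocc, the rootletin gene, had 40 and 22 UMIs, a ratio of 1.11 (0.643 to 1.96). In the list of snoRNA hosts 0 of 5 measured genes passed, with a ratio of 1.88 for Snhg6 and 0.638 for Snhg18.

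Markers of other cell types were looked at beside the neural and epithelial names on the list. Of 6 neuronal markers, Snap25, Syt1 and Elavl4 were at 0 in LCWE fibroblasts and Snap25 and Elavl4 in PBS fibroblasts. The other 3, Tubb3, Elavl3 and Uchl1, made up the whole sum in LCWE fibroblasts, and the list was at 0.520 UMIs per LCWE cell and 0.229 per PBS cell. These 2 values are not scaled for depth, which was greater in LCWE fibroblasts (median 11494 UMIs, against 6215 in PBS fibroblasts). In Chl1-positive LCWE cells 5 of 8 mesothelial markers, Msln, Upk3b, Upk1b, Lrrn4 and Krt8, were at 0. The summed mesothelial list was at 42.9 CPM in Chl1-positive and 77.1 CPM in Chl1-negative LCWE cells. Wt1, also on that list, was among the nearest genes above. Doublet scores that the authors deposited had a median of 0.0410 in LCWE and 0.0282 in PBS fibroblasts, and 0.0431 in Chl1-positive and 0.0370 in Chl1-negative LCWE cells. The part of depth, doublets and carried-over transcripts in these values was not tested beyond the thinning and the cells left out.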

How the data were processed

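Per the labels, aortas were dissociated and their cells taken through a droplet 3′ kit of 10x Genomics (V3). Per the submitters' processing notes, reads were processed with Cell Ranger 3.0.2 against mm10; filters and the strand setting of the counting were not given in the sources used here. The deposited tables give raw counts of UMIs for each gene in each cell, not normalized, and the deposited cell table gives class names, UMAP axes, the percent of mitochondrial UMIs and a doublet score per cell. Summed counts equalled the deposited totals in 10477 of 10477 cells, and the deposited UMAP and score columns were used as given. Libraries held 42275754 UMIs in 5091 LCWE cells and 62600808 in 5386 PBS cells.

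UMIs were summed per library and class and divided by the class total (CPM). Intervals are exact at 95%: Clopper-Pearson for shares, Poisson for CPM and conditional binomial for ratios. They cover counting error only. Sums under 3 UMIs were raised to 3 for ranks, medians and counts past a fold. Genes with at least 50 UMIs over both fibroblast sums were ranked, and listed genes with at least 20 were counted as measured. Cells were thinned to 5000 or 3000 UMIs by drawing without replacement (seed 11), leaving out shallower cells. The 8 genes, the gene lists and markers were chosen with earlier results of these data known. From each list, genes with most fibroblast UMIs, those past 2-fold and closest paralogs were named, some after their values were seen. Likeness used genes with at least 200 UMIs, phi those found in 5% to 95% of the thinned cells. TMM factors came from edgeR 4.0.16 (R 4.3.3), and the other steps used Python 3.11.15 with numpy 2.4.6, scipy 1.17.1 and pandas 2.3.3. The code for ratios was tested on simulated data. Promoters and miRNAs are RefSeq entries for GRCm38.p6, matched by symbol for 7 of the 8 genes. Some listed genes are not reported here.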

Additional observations from a re-analysis of the deposited data

How the results depend on the processing

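The 8 genes were past 10-fold in all 7 alternatives, including TMM scaling, which was chosen after seeing the data (lowest ratio 18.6, Akr1c18), which their choice on this contrast fixes and which shows no stability. The count of all genes past that line was 221, against 98 without cells with a Ptprc UMI and 77 with a minimum of 200 UMIs. In the other alternatives it ran from 196 (without the 5% deepest cells, chosen after seeing the data) to 304 (UMIs per cell). UMIs per cell move the median log2 ratio of all genes from 0.04 to 0.84, and raise all 8 ratios by one common factor, for example to 72.6 for H19, 155 for Emb and 32.8 for Akr1c18. With at least 3 genes in a cell, the LCWE share of 48.1% was 13.6% at 3000 UMIs, 26.4% at 5000 UMIs, 25.6% with detection at 2 UMIs, 32.7% without Emb and 30.6% without Chl1, and the PBS share of 0.115% was 0 at both depths, with detection at 2 UMIs, without Emb and without the 5% deepest cells.

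Shares of positive LCWE fibroblasts at 3000 UMIs were 37.9% for Chl1, 7.32% for Crocc2, 14.0% for Kng2, 10.5% for Nfasc, 4.53% for Akr1c18, 18.1% for H19, 2.53% for Snhg11 and 26.1% for Emb. At 5000 UMIs they were 48.3% for Chl1, 9.64% for Crocc2, 21.2% for Kng2, 15.8% for Nfasc, 5.27% for Snhg11 and 36.7% for Emb. With detection at 2 UMIs they were 45.5% for Chl1, 8.61% for Crocc2, 18.6% for Kng2, 10.9% for Nfasc, 6.03% for Akr1c18, 20.05% for H19, 3.32% for Snhg11 and 33.1% for Emb. Without cells with a Ptprc UMI, Emb was at 47.5%. The difference in detection between Chl1-positive and Chl1-negative cells, in percentage points, was at the deposited depth 19.8 for Crocc2, 31.7 for Kng2, 27.6 for Nfasc, 3.54 for Akr1c18, 18.1 for H19, 8.30 for Snhg11 and 44.3 for Emb. At 3000 UMIs it was 6.87 for Kng2, 13.4 for Emb, 6.23 for Nfasc, 3.61 for H19 and 0.447 for Snhg11, against 17.4, 26.6, 9.79, 6.87 and 2.46 at 5000 UMIs. Akr1c18 thus turned its sign between the deposited depth and 5000 UMIs (−4.99), and depth limits every share of Nfasc and Snhg11. No paired analysis was possible because each group is 1 pooled library.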
